A study of Mus musculus with 90 samples.

Results

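The amygdala of male mice was examined 60 min after a territorial challenge, in 10 of the 90 libraries of the study. The libraries were chosen by their titles: 5 come from residents that met an intruder, numbered 1 to 5, and 5 from control residents, numbered 1, 2, 3, 5 and 6. All animals were C57BL/6J males that had lived 2 weeks with other males, 1 week alone and 1 week with a C57BL/6J female, which was taken out 3 h before the test. An intruder resident met an unfamiliar BALB/cJ male behind steel mesh with openings of about 1 cm for 5 min, and a control resident met the same cage with a paper cup inside. Age is not given, animals were killed by cervical dislocation, and the design text speaks of pooled RNA while the labels name 1 animal per library, so p-values may measure the spread between pools. The question is how amygdala mRNA differs after a brief social threat, as the labels frame the exposure. Amygdala libraries taken at 30 and 120 min and libraries of hypothalamus and frontal cortex taken at 60 min, 10 of each, served for comparison.

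The amygdala is a set of nuclei in the temporal lobe that attaches threat and social meaning to odours and other cues, and it is wired to the hypothalamus and brainstem. Neurons that fire strongly switch on immediate-early genes such as Fos and Arc within minutes, and stress hormones later act on genes such as Fkbp5 through the glucocorticoid receptor. Neurons draw most of their ATP from oxidative phosphorylation (OXPHOS), in which respiratory complexes I to IV pass electrons to oxygen and complex V, the ATP synthase, uses the proton gradient. Most subunits of these complexes are encoded in the nucleus and a small set in the mitochondrial genome.

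Gene reads per library ran from 45.12 to 50.22 M. Reads without a feature took 10.57% to 14.46% of the counted rows, and mitochondrial genes took 7.715% to 10.63% of gene reads. Of 6 library measures, none differed between conditions by an exact two-sided permutation test over 252 groupings (smallest p = 0.1984, adjusted p = 0.6825 for all 6; the smallest p this design allows is 0.007937). The smallest p belonged to reads without a feature, 13.0% ± 0.793 in intruder libraries and 11.9% ± 1.58 in controls (SD, n = 5 each), and 4 of 5 intruder libraries lay above the control mean. Without control 1 that difference went from 1.13 to 1.78 percentage points, with 5 of 5 intruder libraries above the control mean (exact permutation p = 0.02381 over 126 groupings, adjusted p = 0.1429). The column headers carry a library index whose leading part splits the libraries. Control 1 and all 5 intruder libraries share one leading index, here B, and controls 2, 3, 5 and 6 share another, here C. Condition and index therefore coincide except for control 1, and the part of each cannot be told apart. Control 1 also had the most reads without a feature, 14.5%, and controls 2, 3, 5 and 6 had 10.6%, 10.9%, 11.2% and 12.2%.

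Markers of other brain tissue varied between the libraries, and in 3 libraries a set of them stood far from the rest. Control 5 had 1641 CPM of Ttr, the choroid plexus transport protein transthyretin, while the other 9 libraries had 0.959 to 31.9 CPM. All 9 choroid plexus markers were tested, and their summed level was 1841 CPM in control 5, 26.4 to 65.9 CPM in the other controls and 38.1 to 74.9 CPM in intruder libraries. The 10 striatal markers summed to 3874 CPM in control 6, to 596 to 890 CPM in the other controls and to 422 to 2025 CPM in intruder libraries. The 10 cortical markers summed to 1143, 1671, 1556, 1016 and 630 CPM in controls 1, 2, 3, 5 and 6. In intruders 1 to 5 they summed to 1169, 1557, 1489, 1027 and 694.5 CPM. Intruder 4 held Fat2, Cbln3 and Cnpy1, genes typical of cerebellum, at 21.7, 38.1 and 14.4 CPM, and no other library passed 1.12 CPM for any of them. All 10 amygdala markers were detected, with sums of 831 to 1253 CPM in controls and 816 to 1108 CPM in intruder libraries. The part of these tissues in the results below was not tested beyond leaving each library out.

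**Figure D1:**
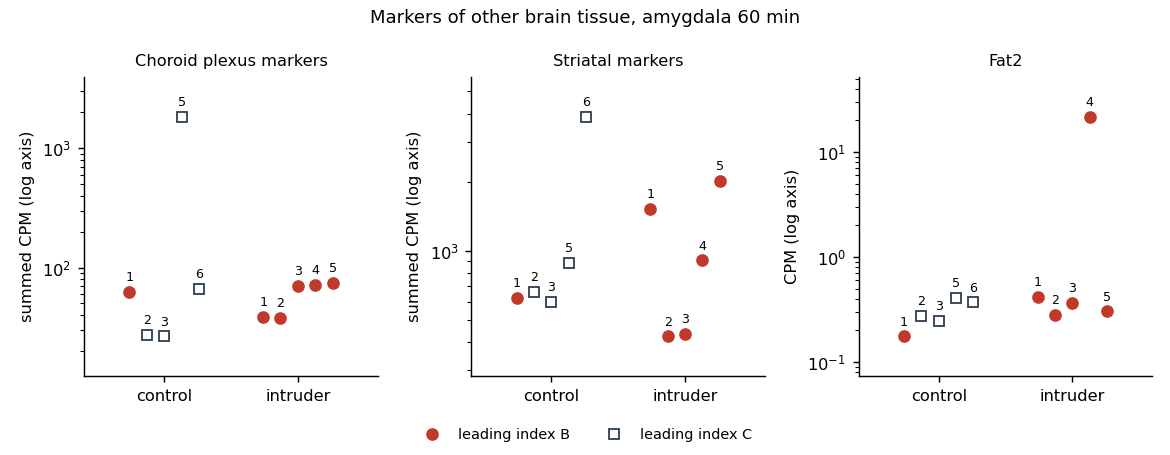
Summed CPM of 9 choroid plexus and 10 striatal markers and CPM of Fat2 (log axes) in the 5 control and 5 intruder libraries at 60 min, numbered as in the labels, with the leading index shown by symbol. Control 5 stands apart at 1841 CPM of choroid plexus markers, control 6 at 3874 CPM of striatal markers and intruder 4 at 21.7 CPM of Fat2.

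No gene was called between intruder and control amygdala at 60 min. edgeR's quasi-likelihood test with Benjamini-Hochberg adjustment at 0.05 called 0 of 17277 genes (0%), and the DESeq2 and limma voom fits also called 0. Without adjustment 1232 genes (7.13%) had p below 0.05, of which 752 (4.35%) were lower and 480 (2.78%) higher in intruder libraries. Over all genes 48.8% had a fold change below 0 and 51.2% one above 0. The 5 intruder libraries lay wholly below the 5 controls for 46 genes (0.266%) and wholly above for 20 genes (0.116%). The values that follow are therefore levels and fold changes of genes that did not pass the test, and missing the threshold does not show that a gene was equal in both groups.

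The smallest edgeR adjusted p over all genes was 0.5125. The 10 lower genes with the smallest p, led by Cited1 and Naa38, were picked by that p and no theme among them was tested. They included Ndufa7, an accessory subunit of complex I, Timm8b, a chaperone of the mitochondrial intermembrane space, Mrpl55 and Mrps16 of the mitochondrial ribosome, and Slirp, which binds mitochondrial mRNAs. Ndufa7 stood at 40.1, 47.9, 52.0, 49.0 and 52.8 CPM in controls 1, 2, 3, 5 and 6 and at 37.6, 40.4, 37.9, 38.1 and 45.2 CPM in intruders 1 to 5. Controls 2, 3, 5 and 6 were above every intruder library, and control 1 was among them. Its log2 fold change was -0.28 ± 0.069 (SE; edgeR adjusted p = 0.5379). Timm8b stood at 47.1, 54.4, 59.1, 50.5 and 52.2 CPM in controls and 45.0, 43.8, 42.5, 45.5 and 48.5 CPM in intruder libraries, again with control 1 inside the intruder range and the other controls above it. Its log2 fold change was -0.23 ± 0.051 (edgeR adjusted p = 0.5125).

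Without control 1 the same edgeR test called 7 of 17385 genes (0.0403%), and each of the other 9 fits that leave out 1 library called 0. Ndufa7, Timm8b and Mrpl55 were then lower, by log2 fold changes of -0.35, -0.27 and -0.21. Cdc25b, a phosphatase that activates cyclin-dependent kinases, Leng8, Pnpla3, a lipid hydrolase, and 2610005L07Rik were higher, by 0.33, 0.42, 0.38 and 0.33. With the leading index as a block in the model, which leaves control 1 as the only control sharing the index of the intruder libraries at 60 min, the fold changes of Ndufa7, Timm8b and Mrpl55 were -0.0090, -0.063 and -0.029. In that fit Leng8, Pnpla3 and 2610005L07Rik had the opposite sign, at -0.17, -0.16 and -0.11, and Cdc25b was at 0.059. These 7 genes were picked by leaving out control 1, and the index block sets the intruder libraries against control 1. The shrunken or reversed fold changes therefore follow in large part from that choice. Without control 1, index and condition coincide fully at 60 min. Leng8 stood at 401 CPM in control 1, 248 to 285 CPM in the other controls and 287 to 394 CPM in intruder libraries.

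In 4 other genes among those with the smallest p the groups did not overlap, and for Brpf3 and Mcmbp control 1 lay among the other controls. Brpf3, a scaffold of histone acetyltransferase complexes, stood at 38.7, 37.8, 34.9, 39.4 and 41.4 CPM in controls and 42.8, 43.9, 42.8, 43.1 and 41.8 CPM in intruder libraries, so that the groups did not overlap. Mcmbp, which binds the replicative helicase subunits, stood at 29.1 to 30.1 CPM in controls and 31.4 to 34.1 CPM in intruder libraries, also without overlap. Their log2 fold changes were 0.16 ± 0.043 and 0.14 ± 0.039 (edgeR adjusted p = 0.6361 for both), and 0.15 and 0.14 with the index as a block. On the lower side Naa38, an auxiliary subunit of an N-terminal acetyltransferase, stood at 18.9, 20.6, 22.8, 19.8 and 23.0 CPM in controls and at 18.3 CPM in the highest intruder library. Cited1, a transcriptional coregulator, stood at 1.71, 1.72, 2.19, 2.29 and 1.95 CPM in controls and 1.09 to 1.69 CPM in intruder libraries. In both, control 1 was the lowest control and close to the highest intruder library. The fold changes of Naa38 and Cited1, -0.31 and -0.53, became -0.16 and -0.32 with the index as a block. Zmat5 and the ribosomal pseudogene Rpl36-ps12, whose reads may belong to near-identical copies, also had groups that did not overlap, and Pcgf1 completes the 10 lower genes.

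Tmem267, a membrane protein, differed most in size among the higher genes that did not rest on 1 library. It stood at 9.55, 11.2, 10.7, 10.6 and 8.71 CPM in controls and 15.7, 15.7, 17.7, 11.2 and 12.2 CPM in intruder libraries, where intruder 4 lay just under control 2. Its log2 fold change was 0.51 ± 0.12 (edgeR adjusted p = 0.5379), and 0.60 with the index as a block. At 60 min it was also higher in hypothalamus, by 0.47 ± 0.15, and in frontal cortex, by 0.63 ± 0.15 (edgeR adjusted p = 0.9999 and 1), tissues of the same 10 animals per the labels. In amygdala it was at 0.046 at 30 min and 0.16 at 120 min. Gon4l, Ptpn23 and Runx1 were the other higher genes, with fold changes of 0.13, 0.22 and 0.38 that were 0.031, 0.041 and 0.43 with the index as a block. Fat2, Cbln3 and Cnpy1 were there through intruder 4 alone.

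**Figure D2:**
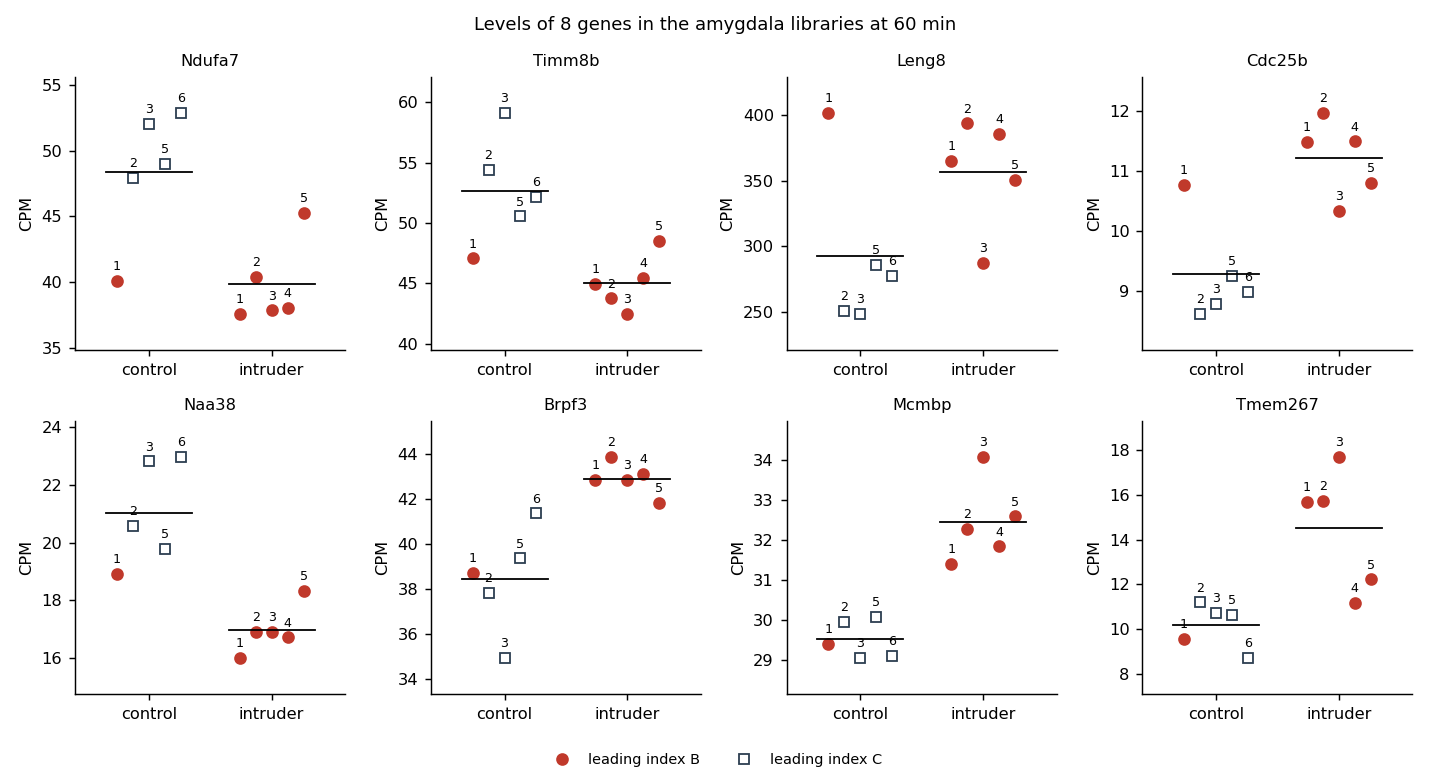
CPM of 8 genes in the 5 control and 5 intruder amygdala libraries at 60 min, numbered as in the labels, with the leading index shown by symbol and the group mean as a line. For Ndufa7, Timm8b and Cdc25b control 1 lies in the range of the intruder libraries, for Leng8 it lies above the highest of them, and for Brpf3 and Mcmbp it lies with the other controls.

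The nuclear-encoded OXPHOS subunits were lower in intruder libraries as a list, and control 1 was as low. All 80 listed subunits were tested, 0 were called, and 80 had a fold change below 0, with a median of -0.16 and a range of -0.30 to -0.039. The median over all genes was 0.0032. With unadjusted edgeR p below 0.05 there were 49 lower subunits and 0 higher ones, where 4.35% of all genes were lower and 2.78% higher. By complex, 23 of 37 subunits of complex I had such a p, 2 of 4 of complex II, 3 of 10 of complex III with cytochrome c, 9 of 11 of complex IV and 12 of 18 of complex V. Complex IV, cytochrome c oxidase, had the lowest median, -0.19, and complex II, succinate dehydrogenase, the highest, -0.14.

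As a mean of log2(CPM + 1) over the 80 subunits, the controls 1, 2, 3, 5 and 6 stood at 6.41, 6.55, 6.71, 6.56 and 6.66, and intruders 1 to 5 at 6.40, 6.35, 6.38, 6.40 and 6.56. Control 1 and intruder 5 cross over: control 1 is as low as the other intruder libraries, and intruder 5 is at the level of controls 2 and 5. The group means were 6.58 ± 0.116 in controls and 6.42 ± 0.0819 in intruder libraries (SD, n = 5 each). Intruder 5 also had the highest sums of the intruder libraries for striatal markers, 2025 CPM, and oligodendrocyte markers, 6235 CPM, and control 1 had 624 and 4030 CPM. All 10 striatal markers had a fold change below 0, with a median of -0.34, or 0.80 with the index as a block. Control 6, at 3874 CPM of these markers, weighs heavily on the direction below 0. The other controls summed to 596 to 890 CPM, and intruders 1 to 5 to 1531, 422, 432, 909 and 2025 CPM. All 10 oligodendrocyte markers were below 0 too, with a median of -0.058, or -0.059 with the block. Control 3, the highest library for OXPHOS, had the lowest striatal sum of the controls, 596 CPM. The OXPHOS median was -0.14 without control 6, the library with the most striatal signal, and -0.20 without intruder 5. The part of these tissues in the OXPHOS values was not tested beyond this. Against control 1 alone the mean of the intruder libraries was higher by 0.0095. The subunits together took 0.894% to 1.04% of gene reads in controls and 0.840% to 0.992% in intruder libraries. In 75 of the 80 subunits control 1 was below the other 4 controls, which was so for 18.6% of all genes, and in 74 it lay within the intruder range, against 78.4% of all genes. With the leading index as a block, which rests on the same comparison with control 1, the median was 0.019. In that fit 32 of 80 subunits were below 0, against 47.6% of all genes.

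Single subunits had the same layout. Uqcrq of complex III stood at 60.6, 73.4, 89.9, 75.7 and 79.4 CPM in controls and 57.9, 61.4, 57.0, 61.6 and 70.0 CPM in intruder libraries, with a log2 fold change of -0.30 ± 0.087. Cox8a of complex IV stood at 205, 253, 295, 249 and 254 CPM in controls and 202, 212, 225, 202 and 227 CPM in intruder libraries, with -0.23 ± 0.089. In both, control 1 was lower than the other controls and inside the intruder range. Atp5o, which joins the catalytic head and the stalk of the ATP synthase, stood at 129, 142, 156, 142 and 142 CPM in controls and 122, 116, 125, 125 and 134 CPM in intruder libraries. Its fold change was -0.19 ± 0.053, and the groups overlapped through control 1 and intruder 5. The edgeR adjusted p was 0.6361 for Uqcrq, 0.6502 for Cox8a and 0.6361 for Atp5o.

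**Figure D3:**
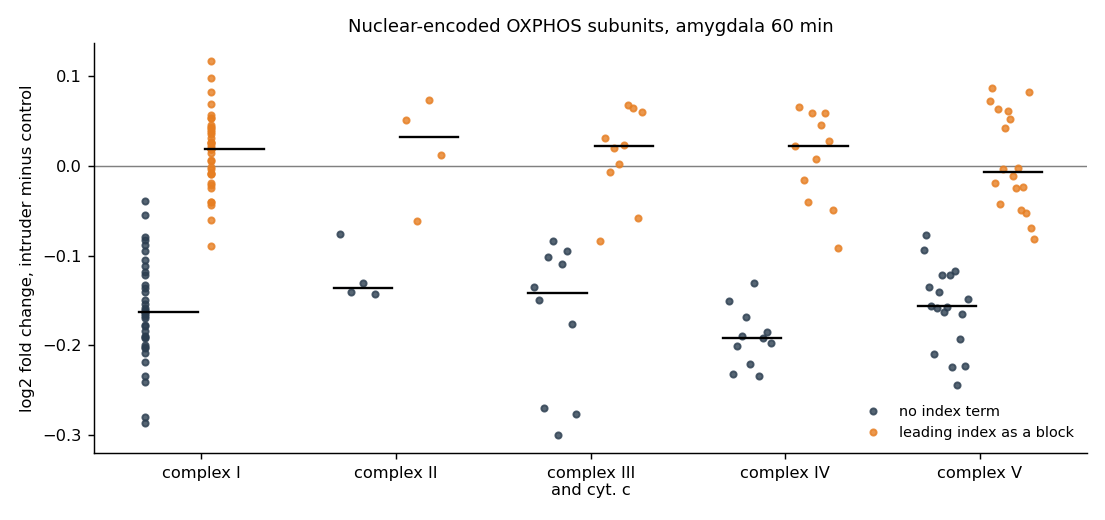
Log2 fold change (intruder minus control) of the 80 nuclear-encoded OXPHOS subunits at 60 min by complex, from the fit without an index term and from the fit with the leading index as a block; each point is a gene and lines are medians. All points of the first fit lie below 0, with medians from -0.19 to -0.14, and those of the second lie around 0, with 32 of 80 below it.

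Factors that assemble the respiratory complexes had 42 of 44 members below 0, a median of -0.077 and 11 with unadjusted p below 0.05, and Coa3, an assembly factor of cytochrome c oxidase, had groups that did not overlap. Of all genes 4.35% were lower at such a p and 0.266% lay lower without overlap. The proteins encoded in mitochondria had 9 of 12 tested members below 0, a median of -0.048 and 0 members with unadjusted edgeR p below 0.05. The mt-Co1 transcript, the core of complex IV, stood at 22180 to 28610 CPM in controls and 21290 to 25600 CPM in intruder libraries. Enzymes of glycolysis had 13 of 17 below 0 (median -0.085), and pyruvate dehydrogenase with the citrate cycle 19 of 20 (median -0.075). In the fit with the index block the medians were 0.00062 for the assembly factors (22 below 0), 0.11 for the proteins encoded in mitochondria (3 below 0), 0.030 for glycolysis (2 below 0) and 0.011 for pyruvate dehydrogenase with the citrate cycle (8 below 0). Of 24 regulators of mitochondrial genes 17 were above 0. Among them Sirt1, a deacetylase, was at 0.14 ± 0.047 and Sirt3, its mitochondrial relative, at -0.12 ± 0.052 (edgeR adjusted p = 0.6361 and 0.6892), and they were at 0.012 and -0.0021 with the index as a block.

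Protein synthesis and breakdown genes were also below 0 in the fit without an index term. All 78 tested cytosolic ribosomal proteins were below 0, with a median of -0.14, a range of -0.26 to -0.030 and 46 with unadjusted edgeR p below 0.05; 0 were called. Their mean log2(CPM + 1) was 6.84, 6.91, 7.15, 6.97 and 7.002 in controls and 6.77, 6.78, 6.86, 6.82 and 6.97 in intruder libraries. Control 1 again lay inside the intruder range, and control 3 was the highest of the 10. Ribosomal protein genes have many processed copies in the genome, so reads that aligned to several places may be missing from their counts. Rpl41, the smallest of these proteins, stood at 143 to 199 CPM in controls and 127 to 147 CPM in intruder libraries. Of 76 mitochondrial ribosomal proteins 73 were below 0 (median -0.11, 35 with unadjusted p below 0.05, 4 without overlap between groups), and of 33 proteasome subunits 31 (median -0.072, 9 with such a p). Over all genes 48.8% were below 0, 4.35% were lower at unadjusted p below 0.05 and 0.266% lay lower without overlap. With the leading index as a block the medians were 0.011 for the cytosolic ribosome (34 of 78 below 0), -0.0012 for the mitochondrial ribosome (39 of 76) and 0.013 for the proteasome (13 of 33), where 47.6% of all genes were below 0.

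Chromatin regulators had the opposite direction in the fit without an index term. All 29 members of the list, which holds histone methyltransferases, remodellers, acetyltransferases and other chromatin cofactors, were above 0, with a median of 0.094 and 6 with unadjusted edgeR p below 0.05: Ehmt1, Crebbp, Setd5, Kmt2e, Chd8 and Kmt2a. Of all genes 51.2% were above 0 and 2.78% were higher at such a p. Crebbp, a histone acetyltransferase and coactivator, stood at 53.2, 46.7, 34.5, 47.1 and 49.4 CPM in controls and 54.9, 60.2, 47.8, 53.9 and 52.4 CPM in intruder libraries, where control 1 was high and control 3 low. With the leading index as a block the list's median was -0.015, and 18 of 29 were below 0, against 47.6% of all genes. Meg3, a long noncoding RNA kept in the nucleus, stood at 8209 CPM in control 1, 4449 to 5452 CPM in the other controls and 5629 to 7253 CPM in intruder libraries. In the 20 amygdala libraries of the other times it stood at 5512 to 7756 CPM, so controls 2, 3, 5 and 6 were the lowest of all 30. Malat1, another RNA of the nucleus, did not share this. It stood at 534, 693, 372 and 676.5 CPM in those controls and at 367 to 1151 CPM at the other times. Of 5 nuclear-retained RNAs tested 4 were above 0, with a median of 0.18, or -0.23 with the index as a block.

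Over all genes the median fold change differed with transcript length. Genes were split into quintiles by the median length of their annotated transcripts. The median log2 fold change was -0.023, -0.016, -0.0058, 0.011 and 0.032 from the shortest quintile to the longest. With the leading index as a block these medians were 0.0071, 0.0089, 0.010, 0.0045 and 0.0078. At 30 min they ran the other way, 0.0068, 0.0043, -0.0065, -0.016 and -0.030. At 120 min they were -0.026, -0.029, -0.0027, 0.017 and 0.048. Of the 80 OXPHOS subunits 55 lay in the shortest quintile, and 11 of 29 chromatin regulators in the longest. The part of length, RNA quality or the index in these results was not tested beyond these values. A correction for GC content and length left the OXPHOS median at -0.15.

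**Figure D4:**
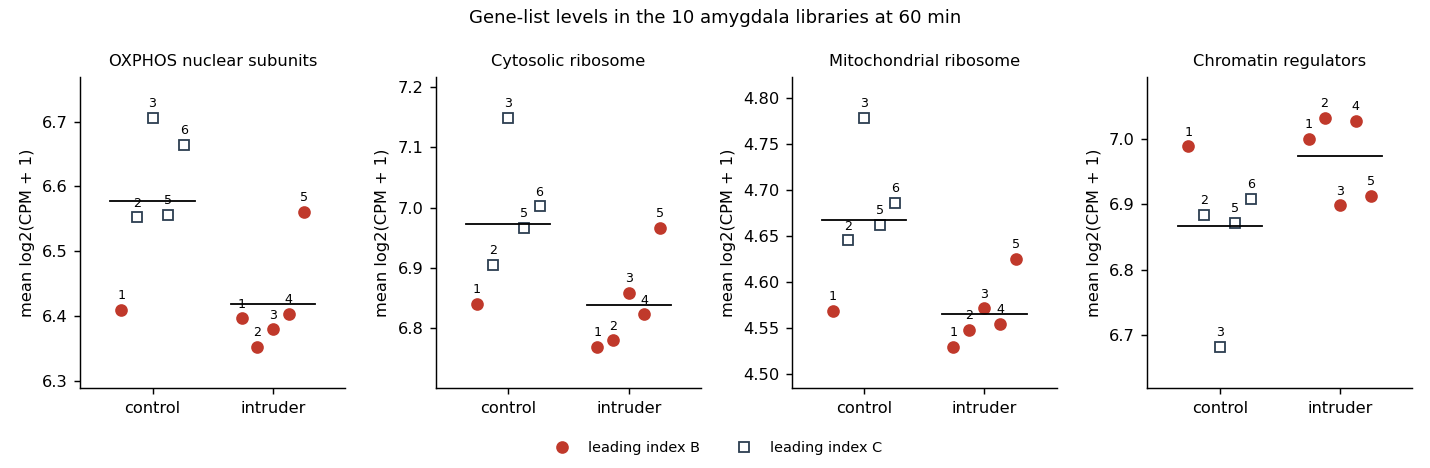
Mean log2(CPM + 1) over 4 gene lists in the 5 control and 5 intruder amygdala libraries at 60 min, numbered as in the labels, with the leading index shown by symbol and the group mean as a line. In all 4 lists control 1 lies within the range of the intruder libraries.

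Genes of neuronal activity and stress hormones showed no called change. Of 20 immediate-early genes 14 were below 0 (median -0.061), with 0 called and 0 at unadjusted edgeR p below 0.05. Fos stood at 30.2, 39.2, 31.9, 25.1 and 18.4 CPM in controls and 31.7, 21.7, 32.1, 21.3 and 20.8 CPM in intruder libraries, with a log2 fold change of -0.18 ± 0.15 (edgeR adjusted p = 0.8683). Arc stood at 82.2, 139, 92.7, 68.2 and 76.5 CPM in controls and 128, 74.5, 93.0, 50.9 and 62.5 CPM in intruder libraries. For both, the groups overlap widely. Of 16 glucocorticoid-responsive genes 12 were above 0 (median 0.094). Fkbp5, a chaperone of the glucocorticoid receptor, stood at 52.4 to 69.4 CPM in controls and 51.1 to 78.6 CPM in intruder libraries, and Mt1, a metallothionein, was the only member at unadjusted p below 0.05, with -0.23 ± 0.10. Of 19 clock genes 14 were above 0. Per2 stood at 68.2, 57.0, 56.0, 57.3 and 62.3 CPM in controls and 79.8, 81.7, 64.4, 64.5 and 65.7 CPM in intruder libraries, with 0.24 ± 0.098 (edgeR adjusted p = 0.6502). Under the index block the median was 0.058 for immediate-early genes (8 of 20 below 0), 0.18 for glucocorticoid-responsive genes (1 of 16 below 0) and 0.017 for clock genes, with Mt1 at 0.19 and Per2 at 0.064.

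Of 20 neuropeptides tested 17 were below 0 (median -0.23), and of these Npy, neuropeptide Y, alone had an unadjusted p below 0.05. It stood at 30.8, 38.6, 44.4, 32.7 and 35.9 CPM in controls and 32.1, 29.7, 32.7, 30.4 and 33.1 CPM in intruder libraries (log2 fold change -0.21 ± 0.098). The list's median with the index as a block was 0.011, 10 of 20 were below 0, and Npy was at 0.037. Penk, proenkephalin, which is abundant in striatum, was at 771 CPM in control 6 and at 165 to 198 CPM in the other controls, and at 106 to 439 CPM in intruder libraries. Receptors, channels and synaptic genes had small medians: 0.016 for 31 peptide and steroid receptors, 0.035 for 27 ionotropic receptor subunits, 0.048 for 30 voltage-gated channels, 0.026 for 30 synaptic adhesion and scaffold genes, -0.031 for 25 synaptic vesicle genes and -0.032 for 10 genes of glutamate and GABA identity. Heat shock genes and chaperones had a median of -0.012 over 22 genes, and 21 mRNA-binding regulators one of 0.049. With the index as a block the medians were 0.033 for the peptide and steroid receptors, -0.017 for the ionotropic receptor subunits (16 below 0), 0.0024 for the channels, 0.036 for the adhesion and scaffold genes, 0.019 for the vesicle genes (8 below 0) and 0.027 for the identity genes (3 below 0). Heat shock genes and chaperones, with 12 of 22 below 0 before, then had 3 below 0 and a median of 0.11, and the mRNA-binding regulators had 0.0017. All 10 microglial markers were below 0 (median -0.11), with sums of 402 to 480 CPM in controls and 385 to 454 CPM in intruder libraries. Neuron and astrocyte markers had medians of -0.081 and -0.032, and mural cell markers 0.18 with sums of 178 to 335 CPM in controls and 200 to 341 CPM in intruder libraries. In the index-block fit the medians were 0.040 for microglia (4 of 10 below 0), 0.0074 for neurons, -0.023 for astrocytes and 0.085 for mural cells. In bulk tissue, fewer cells of a type and less RNA per cell cannot be told apart.

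The intruder effect was set against that at other times in the same fit. Against 120 min, edgeR called 2 of 17277 genes (0.0116%). Without adjustment 1580 genes (9.15%) had p below 0.05. Cdc25b stood at 10.8, 8.63, 8.79, 9.26 and 8.999 CPM in controls and at 11.5, 12.0, 10.3, 11.5 and 10.8 CPM in intruder libraries at 60 min. At 120 min the controls stood at 8.96 to 11.02 CPM and the intruder libraries at 8.24 to 8.65 CPM, so the order of the groups turned. The 2 effects differed by 0.51 ± 0.086 on the log2 scale (adjusted p = 0.02833). Scarna13, a small RNA of Cajal bodies that guides modification of splicing RNAs, stood at 0.157 to 0.247 CPM in controls and 0.325 to 0.436 CPM in intruder libraries at 60 min, and at 0.213 to 0.451 and 0.103 to 0.264 CPM at 120 min. The difference was 1.96 ± 0.34 (adjusted p = 0.02833), at levels of few reads per library. Neither call was made with the index or the replicate number as a block. Leaving out 1 library gave 0 to 94 calls, with 94 without control 1 of 60 min, 7 without intruder 3 of 60 min and 5 without intruder 3 of 120 min. No gene was called without control 2, 3, 5 or 6 or intruder 1, 2 or 4 of 60 min. The same held without control 1, 2 or 3 or intruder 2 or 6 of 120 min.

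Against 30 min edgeR called 0 genes (0%), with 1458 (8.44%) at unadjusted p below 0.05 and 2 called without control 1 of 60 min. The header tag of the libraries, whose meaning is not given, also differs between 30 and 60 min, so the tag and the time cannot be told apart. The 80 OXPHOS subunits had a median of 0.048 at 30 min (6 below 0, against 53.6% of all genes) and -0.042 at 120 min (57 below 0, against 49.8%), beside -0.16 at 60 min. The 78 ribosomal proteins had medians of 0.039 and -0.068 at those times. Immediate-early genes had a median of 0.17 at 30 min and 0.014 at 120 min. Of the effects at 60 min set against 30 min, 45 OXPHOS subunits had an unadjusted p below 0.05 on the lower side, where 4.67% of all genes did, and 0 were called. At 30 min the leading index was A in all 5 intruder libraries and 3 controls and B in 2 controls, and at 120 min it was C in 4 intruder libraries and D in the rest.

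Against the other regions at 60 min, no gene was called: 0 of 17628 (0%) against hypothalamus, with 561 (3.18%) at unadjusted edgeR p below 0.05, and 0 of 17628 (0%) against frontal cortex, with 679 (3.85%). The DESeq2 and limma voom fits also called 0. These fits treat the libraries as independent, although the regions come from the same animals per the labels. With the animal as a block, edgeR also called 0 in both comparisons. Of 17628 genes, 818 against hypothalamus and 883 against frontal cortex then had an unadjusted p below 0.05. The OXPHOS subunits had a median of 0.0075 in hypothalamus (33 of 80 below 0, against 52.8% of all genes) and 0.023 in frontal cortex (14 below 0, against 50.5%), and the ribosomal proteins 0.050 and 0.052 (2 of 78 below 0 in each). The difference from the amygdala had an unadjusted p below 0.05 on the lower side for 24 and 26 of the 80 subunits, where 1.99% and 2.55% of all genes did. The animal was not a block in the fit that gave these counts. Glucocorticoid-responsive genes had medians of 0.13 in hypothalamus and 0.077 in frontal cortex, on the same side as in amygdala. As the regions share animals, that match is not independent and was not tested.

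**Figure D5:**
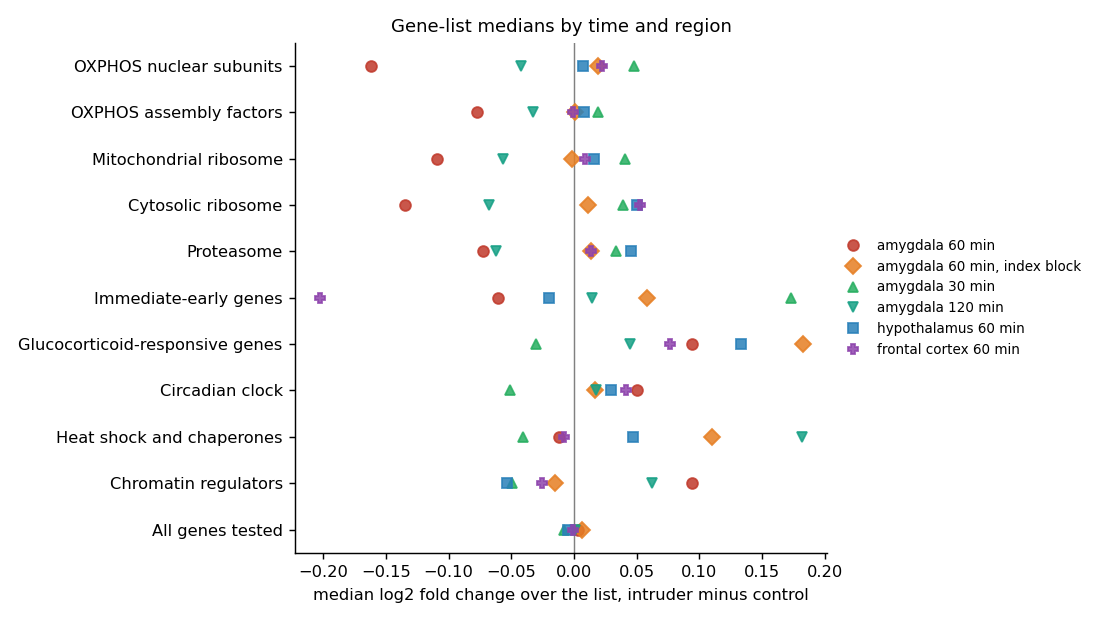
Median log2 fold change (intruder minus control) over 10 gene lists and over all genes, in amygdala at 60 min with and without the leading index as a block, in amygdala at 30 and 120 min, and in hypothalamus and frontal cortex at 60 min. The OXPHOS and ribosomal medians lie lowest in amygdala at 60 min without the index term, at -0.16 and -0.14, and near 0 with it.

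The promoters of 3 genes called without control 1 are shown to place the genes in the genome and to describe the list. They are the 250 bases before the first RefSeq start on GRCm38.p6, plus strand, 5′ to 3′, in lower case, with matches to the motifs named below in capitals.
Ndufa7, chr17:33824322-33824571: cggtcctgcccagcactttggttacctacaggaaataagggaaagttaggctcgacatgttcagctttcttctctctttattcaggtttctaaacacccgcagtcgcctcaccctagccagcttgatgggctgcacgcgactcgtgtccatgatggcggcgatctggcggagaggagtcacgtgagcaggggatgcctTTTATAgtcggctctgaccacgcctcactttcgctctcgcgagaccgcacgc
Timm8b, chr9:50603651-50603900: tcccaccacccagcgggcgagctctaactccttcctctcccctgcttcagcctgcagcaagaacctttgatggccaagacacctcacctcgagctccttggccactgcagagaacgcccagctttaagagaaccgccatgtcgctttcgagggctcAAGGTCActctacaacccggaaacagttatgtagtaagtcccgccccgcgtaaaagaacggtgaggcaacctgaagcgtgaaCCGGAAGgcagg
Cdc25b, chr2:131186698-131186947: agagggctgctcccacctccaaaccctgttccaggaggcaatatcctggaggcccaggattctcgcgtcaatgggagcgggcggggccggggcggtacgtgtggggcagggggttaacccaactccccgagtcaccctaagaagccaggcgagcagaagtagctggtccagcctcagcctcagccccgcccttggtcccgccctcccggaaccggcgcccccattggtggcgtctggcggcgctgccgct
The capitals mark TATAAA, the TATA box, on the minus strand in Ndufa7, and AAGGTCA, a nuclear receptor half-site, and CCGGAAG, the core bound by ETS factors, in Timm8b. No match was found in Cdc25b. RefSeq promoters matched 65 of 80 OXPHOS subunits by symbol, with 70 starts. On either strand CCGGAAG was in 17.1% of these windows, AAGGTCA in 8.57%, GCGCATG, part of the NRF1 site, in 15.7%, AAGATGG, part of the YY1 site, in 1.43% and TATAAA in 8.57%. In the windows of all tested genes that matched, 15741 starts, the shares were 11.4%, 3.05%, 5.03%, 4.15% and 6.99%. In 67 windows of ribosomal proteins they were 28.4%, 5.97%, 7.46%, 8.96% and 4.48%. These are matches of letters and not sites bound in these tissues.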

How the data were processed

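Poly(A) RNA of dissected mouse brain regions was sequenced single-end from stranded libraries, per the labels' protocols. The authors deposited counts of reads per gene, for 37991 Ensembl identifiers. The submitters' processing notes name CASAVA 1.8.2, TopHat2 2.0.8, HTSeq 0.6.1, edgeR 3.2.4, R 3.0.0 and build NCBIM37, without roles; the strand setting and the annotation release are not given in the sources used here. The 5 rows that name no gene were left out (without a feature 10.57% to 14.46%, ambiguous 0.6613% to 0.7373%, not unique 10.04% to 11.12% in these libraries). Gencode M21 named 32919 identifiers; the rest held at most 0.7202% of gene reads.

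The 30 amygdala libraries were fitted with edgeR 4.0.16 under R 4.3.3: 6 groups, filterByExpr, TMM, a trended dispersion and the quasi-likelihood test, two-sided. Fits across regions used the 30 libraries taken at 60 min. CPM are on TMM-scaled library sizes, log2 fold changes are intruder minus control, and list levels are means of log2(CPM + 1). SE is the fold change over the square root of F. A call is a p below 0.05 after Benjamini-Hochberg adjustment over all genes tested. Alternatives used DESeq2 1.42.0 and limma 3.58.1. The test was checked on simulated counts.

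The text names the 10 higher and 10 lower genes of smallest p with a mean of at least 1 CPM and a symbol, all genes called when 1 of the 10 libraries is left out, and members of the gene lists. The libraries, lists and tests were chosen with earlier results of these data known. Within groups, pairs of libraries differed by 13.3 to 126.5 times sampling noise (mean chi-square per gene), so none was treated as a library deposited again, which does not show that they are separate animals. The depth was 45.12 to 50.22 M gene reads, without molecular identifiers. Promoters are RefSeq windows.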

Additional observations from a re-analysis of the deposited data

Results flagged for a closer look

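In 9 cases a value stood far from the other 4 of their group, by a gap over the range above 0.71, among 176 gaps, counting both ends of each group; chance gives about 1 in 20 groups, and the 9 are to be read against that rate. The ratio was 0.718 to 0.758 for Gon4l, Leng8 and the oligodendrocyte and hippocampal markers, and 0.910 to 0.994 for the others. Control 6 had summed oligodendrocyte markers of 5647 CPM (next 4030), striatal markers of 3874 CPM (next 890) and hippocampal markers of 640 CPM (next 489). Control 5 had choroid plexus markers of 1841 CPM (next 65.9). Intruder 4 had Fat2 at 21.7 CPM, Cbln3 at 38.1 CPM and Cnpy1 at 14.4 CPM, where the next values were 0.414, 0.807 and 0.238 CPM. Intruder 2 had Gon4l at 64.4 CPM (next 60.8), and control 1 had Leng8 at 401 CPM (next 285).

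The intruder effect of 60 min differed from that of 120 min by edgeR's interaction contrast for Cdc25b, by 0.51, and for Scarna13, by 1.96 on the log2 scale (adjusted p = 0.02833 for both). In many of the fits that leave out 1 library no gene was called. In Cdc25b 4 of 5 intruder libraries at 60 min lay above every control, and at 120 min all 5 lay below every control. Leading index and condition nearly coincide at both times and cannot be told apart for these genes.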

How the results depend on the processing

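The count of 0 genes called at 60 min held under DESeq2, upper-quartile scaling, no filter, limma voom, the 60 min libraries alone, the GC and length correction and the replicate block (0 each). It ran from 0 to 7 when 1 library was left out. Genes at unadjusted p below 0.05 ran from 570 of 16649 (60 min libraries alone) to 2435 of 17385 (without control 1). The main fit had 1232 of 17277. The index block, which rests on control 1 alone at 60 min, is left out of these counts. Against 120 min the 2 calls became 56 with DESeq2, 4 with upper-quartile scaling, and 0 with no filter, with the replicate block and with the index block, and ran from 0 to 94 without 1 library. Against 30 min the leave-one-out range was 0 to 2, and against both regions 0 to 0. The list medians moved by less than the spread between libraries under the other settings, but were 0.019 (OXPHOS subunits), 0.00062 (assembly factors), -0.0012 (mitochondrial ribosome), 0.011 (cytosolic ribosome) and -0.015 (chromatin regulators) with the index block. At 60 min the index block sets the intruder libraries against control 1 alone. The same comparison from library levels, added after seeing the data, gave medians of 0.015, -0.0021, -0.0031, 0.0086 and -0.018. It is not a separate result. In the fits without an index term that leave out 1 library, the list medians ran from -0.21 to -0.13, -0.10 to -0.051, -0.14 to -0.080, -0.18 to -0.095 and 0.055 to 0.12 in that order. Those of immediate-early genes ran from -0.17 to 0.0063 and those of glucocorticoid-responsive genes from 0.032 to 0.13. Cbln3 and Cnpy1 turned to -0.24 and -0.39 with the replicate block and, without 1 library, ran from -0.31 to 3.79 and -0.42 to 4.62, the low end without intruder 4; Leng8, Pnpla3 and 2610005L07Rik turned to -0.17, -0.16 and -0.11 with the index block. Library measures without 1 library: detected genes -17.4 to 105.6, ambiguous reads -0.018 to 0.00028 percentage points, mitochondrial reads -0.55 to 0.18, reads without a feature 0.808 to 1.78, the high end without control 1 (exact permutation p = 0.02381, adjusted p = 0.1429). The causes were not tested.

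Equal replicate numbers do not pair animals by the labels; deviations of same-numbered libraries correlated at 0.015, 0.64, 0.67 and 0.24 for numbers 1, 2, 3 and 5 over 14237 genes, and not every library correlated best with its own number. With 5 libraries a group and index nearly tied to condition, an index effect and an intruder effect cannot be told apart here.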
